A study of Mus musculus with 2 samples.

Results

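The AP-1 family motifs were the 33 rows, of 579 motif rows in all, whose names begin with FOS, JUN, BATF or BACH, with each version of a name kept as its own row. Of these, 22 carry the plain name of a factor or a pair of factors and are called base versions, and 11 carry the ending (var.2). All 11 (var.2) rows have a base row of the same name, and 11 base rows have no partner. The counts came from 2 replicate libraries of wild-type mouse retina at embryonic stage E14.5, dissociated and profiled by droplet-based single-cell ATAC-seq, in which a transposase cuts DNA in open chromatin. Both libraries belong to 1 group, with no treatment or mutant, so conditions were not compared. Nothing in the labels ties the replicates to separate animals. Each SD is therefore the spread between 2 libraries, which may be technical. Cells were kept with a total of at least 300000 motif counts that was also above the total of the same barcode in the other library, which left 890 of 2422 barcodes in replicate 1 and 1051 of 3033 in replicate 2.

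AP-1 is a dimer of basic leucine zipper (bZIP) proteins. A FOS protein pairs with a JUN protein, and JUN proteins also pair among themselves. The dimers bind the TPA response element and, with 1 more base between the half-sites, the cAMP response element that CREB and ATF proteins bind as well. FOS, FOSB, JUN and JUNB are immediate-early genes, whose transcription rises soon after growth signals, neuronal activity or stress, including stress from tissue dissociation. FOSL1 and FOSL2 are FOS-related proteins, JUND is a JUN protein with steadier expression, and BATF and BATF3 are FOS-like partners of JUN best known in immune cells. BACH1 and BACH2 are repressors that pair with small MAF proteins on longer elements with an AP-1-like core. A motif count is the accessibility of all peaks that hold a pattern. It does not measure a factor's level or binding, and factors with like patterns share counts.

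To show what the patterns look like in DNA, 4 promoter sites known as examples of these elements are given from RefSeq promoters of build GRCm38.p6, each 5′ to 3′ on its gene's strand, with the matching letters in capitals and 20 bases on each side. They illustrate the elements and were not measured as single sites here.
Mmp3 (chr9:7445756-7445802, plus strand): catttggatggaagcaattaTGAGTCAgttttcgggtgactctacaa
Mmp13 (chr9:7272459-7272505, plus strand): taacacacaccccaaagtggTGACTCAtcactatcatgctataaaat
Sst (chr16:23890865-23890912, minus strand): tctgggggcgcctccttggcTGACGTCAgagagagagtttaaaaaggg
Jun (chr4:95052240-95052287, minus strand): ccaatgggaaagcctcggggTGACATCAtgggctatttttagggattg
Mmp3 and Mmp13 encode matrix proteases and carry the TPA response element TGACTCA, in Mmp3 on the opposite strand. Sst encodes the neuropeptide somatostatin and carries the cAMP response element TGACGTCA. Jun carries TGACATCA, which differs from that element at a central base. The matches begin 46, 35, 48 and 45 bases upstream of the annotated start, in the order printed. They lie in promoters, before the first exon.

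Searched on both strands, TGACTCA was found in 5.20% of 32851 RefSeq promoters of 300 bases, TGACATCA in 3.62% and TGACGTCA in 1.79%. Promoters with TGACGTCA had a median GC content of 59.8%, above the 52.7% of all promoters. Those with TGACTCA had 49.7% and those with TGACATCA 47.0%. The rarest of the 3 words was thus the one found in the promoters of highest GC content. Of 11 member genes, 10 had a promoter in the table, and Jun was the only one of these with any of the 3 words. The motif list gives names and identifiers without letters, so which element each row was searched with is not given in the sources used here.

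AP-1 family motifs made up a small share of the counts. The 33 rows summed to 0.648% of a cell's motif counts in replicate 1 and 0.628% in replicate 2 (mean 0.638% ± 0.014, SD, n = 2). The base versions gave 41.4 and 39.7 counts per 10000, and the (var.2) versions 23.4 and 23.1. A median member stood at 1.88 and 1.86 counts per 10000, against 4.12 and 4.11 for a median motif of the whole table. Even so the depth was ample: a median cell held 22609 and 22063 member counts. One cut is counted for each motif in its peak, so these counts are not independent reads.

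The order of the members did not follow the version. FOSL1::JUND(var.2), a pattern for a FOS-related and a JUN protein, was highest at 4.52 ± 0.0015 counts per 10000 (SD, n = 2). FOS::JUN, the classical dimer, followed at 4.05 ± 0.032, and FOSB::JUNB(var.2) at 3.97 ± 0.045. The difference between the first and the second was larger than the spread between libraries, while that between the second and the third was of the order of the spread. BATF3 was lowest at 0.437 ± 0.0077. Next came FOSB::JUN and FOSL2::JUN(var.2), both at 0.505 ± 0.023, and FOS::JUNB at 0.514 ± 0.047, which did not differ beyond their spread.

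Some member names were the same measurement. FOSB::JUN and FOSL2::JUN(var.2) had identical counts in every kept cell of both libraries. The same held for FOSL1::JUN(var.2) with JUNB(var.2), and for FOSB::JUNB with FOSL2::JUND. The 33 rows therefore hold 30 distinct measurements, and each such pair counts as 2 rows in the numbers below. The first of these pairs crosses the versions, so that 1 set of counts serves as a base version under one name and as a (var.2) version under another.

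**Figure D1:**
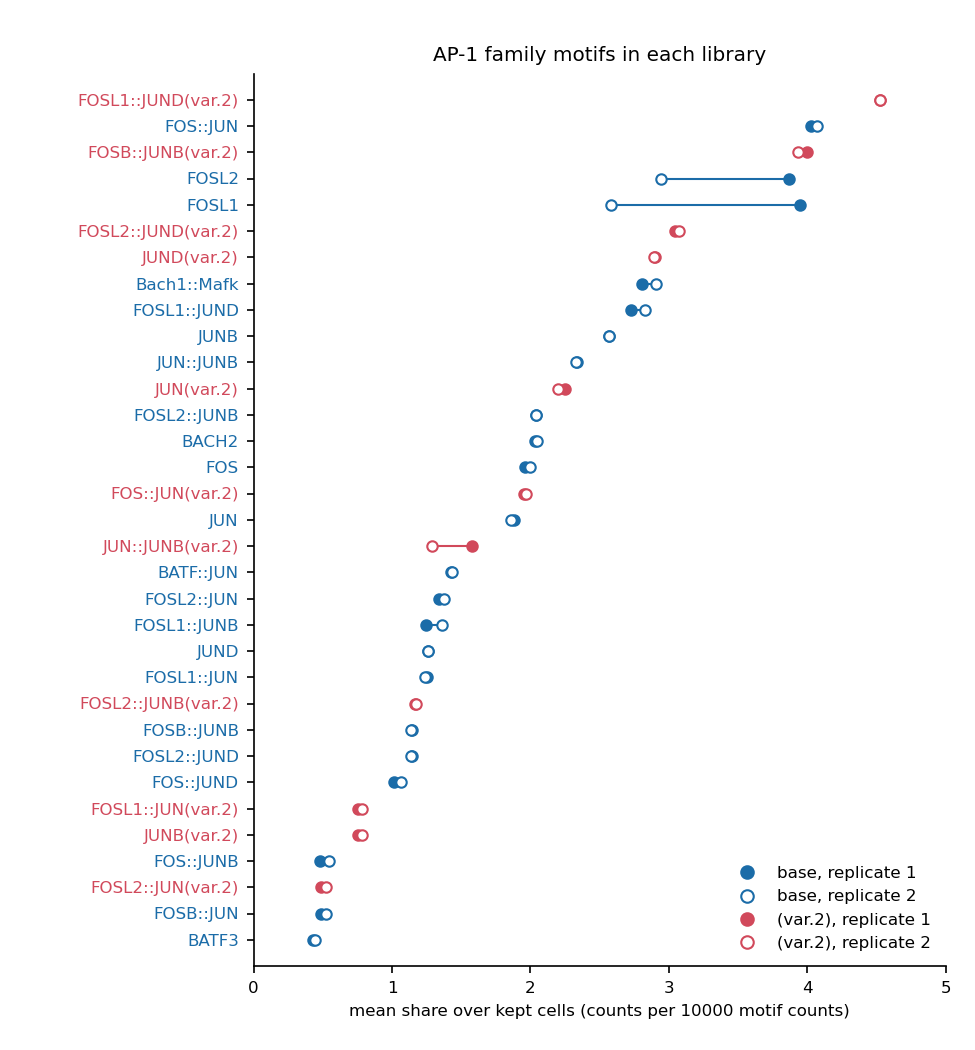
Mean share over kept cells, in counts per 10000 motif counts, of each of the 33 AP-1 family motifs in replicate 1 (filled points) and replicate 2 (open points), with base versions in blue and (var.2) versions in red. Most points of a row lie on each other, whereas FOSL1 and FOSL2 are far apart, at 3.95 against 2.58 and 3.86 against 2.94.

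FOSL1 and FOSL2, the FOS-related members, differed most between the replicates. FOSL1 stood at 3.95 counts per 10000 in replicate 1 and 2.58 in replicate 2, a log2 ratio of 0.61. FOSL2 stood at 3.86 and 2.94, a log2 ratio of 0.39. JUN::JUNB(var.2) was also higher in replicate 1, at 1.58 against 1.29 (log2 ratio 0.30). In the other direction, FOS::JUNB stood at 0.481 and 0.548 (log2 ratio -0.19) and FOSL1::JUNB at 1.24 and 1.36 (-0.13). These 5 of 33 members passed a log2 ratio of 0.1 in size, against 11.7% of all 579 motifs, so the share of members was near the background. Without them the family summed to 0.537% and 0.541%, and the order of the replicates turned. CREB1 (log2 ratio 0.22) and JDP2(var.2) (0.23), which are not members, were likewise higher in replicate 1.

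The FOSL1 difference was present in nearly every cell and was not carried by a subset. JUNB, a JUN protein, served as the reference, since it stood at 2.57 counts per 10000 in both libraries. The ratio of FOSL1 to JUNB counts within a cell had a median of 1.53 in replicate 1, from 1.17 to 2.25, and of 1.01 in replicate 2, from 0.712 to 1.51. In replicate 1, 100% of cells were above the 95th percentile of replicate 2, which was 1.16, although the extremes of the 2 libraries overlapped. For FOSL2 to JUNB the medians were 1.51 and 1.15, and 99.6% of replicate 1 cells were above the 95th percentile of replicate 2. The library and any difference between the tissue samples cannot be told apart here.

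**Figure D2:**
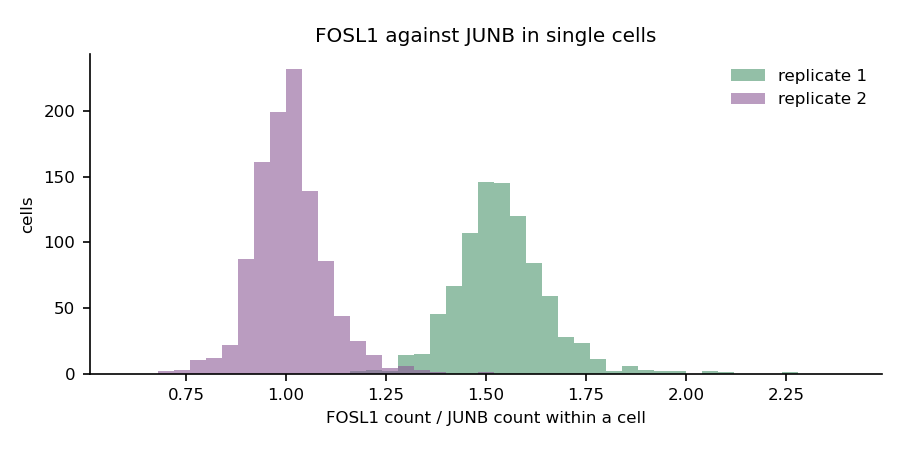
Number of kept cells (vertical axis) by the ratio of FOSL1 to JUNB motif counts in the same cell (horizontal axis, no unit), for replicate 1 in green and replicate 2 in purple. The 2 distributions have medians of 1.53 and 1.01 and overlap only at their edges.

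The 11 pairs of a base and a (var.2) version split almost evenly by which was higher. The base version was higher in 6 pairs and the (var.2) version in 5. JUNB led the first group, at 2.57 in both libraries against 0.758 and 0.781 for JUNB(var.2), a 3.34-fold difference (log2 1.74 ± 0.031, SD, n = 2). It was followed by FOSL2::JUN at log2 1.43 ± 0.041 and FOS::JUN at 1.05 ± 0.0021. FOSL2::JUNB at 0.80 ± 0.0093, JUN::JUNB at 0.71 ± 0.21 and FOSL1::JUN at 0.70 ± 0.042 came next. FOSL2::JUNB was above FOSL1::JUN in both libraries, while JUN::JUNB, whose (var.2) version differs between libraries, did not differ from either beyond its spread. Across the 11 pairs the median log2 ratio was 0.56 in replicate 1 and 0.67 in replicate 2.

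The (var.2) version was higher in pairs that hold JUND or FOSB and in JUN itself. FOSB::JUNB stood at 1.14 in both libraries against 3.998 and 3.934 for FOSB::JUNB(var.2), which was 3.47-fold higher (log2 -1.80 ± 0.012). FOSL2::JUND (log2 -1.42 ± 0.015), JUND (-1.20 ± 0.0059) and FOSL1::JUND (-0.70 ± 0.038) followed. JUN was the closest pair, at 1.88 and 1.86 against 2.25 and 2.20 (log2 -0.25 ± 0.0094). The 3 named JUND pairs were thus all on this side. Each pair kept its direction in both libraries by more than the spread between them, although with 2 libraries no exact test can pass 0.05. The direction also held cell by cell: in 5.39% and 7.23% of cells was JUN above JUN(var.2), and in the other 10 pairs from 98.8% to 100% of cells of a library followed the direction of their pair.

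The 2 versions of a name did not rise and fall together from cell to cell. Likeness was measured as Pearson's r over the kept cells of a library, on log2(counts per 10000 + 1) with the cell's log10 total regressed out. It describes cells of 1 library, which share their depth scale and peaks, and carries no p-value. The pseudocount of 1 is of the order of a member's level and narrows these values. The mean r between partners ran from -0.15 for FOSL1::JUND to 0.17 for JUN. By comparison, the median r among base versions was 0.13 and 0.15 in the 2 libraries, and among (var.2) versions 0.27 and 0.27. Between a base and a (var.2) version it was -0.0075 and -0.016. The r of a row with its identical row was left out, but both rows still entered against all other members. The median over all pairs of motifs in the table was 0.0013 and 0.0037.

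Most (var.2) versions went with CREB1, and few base versions did. CREB1, which binds the cAMP response element, and NFE2, a partner of small MAF proteins, were used as 2 fixed references. Of the 11 (var.2) versions, 9 had a higher r with CREB1 than with NFE2 in both libraries. The same held for 32.9% of all motifs other than the 2 references, members included. The highest r with CREB1 was that of FOSL2::JUND(var.2), at 0.79 and 0.74. FOSL2::JUNB(var.2) stood at 0.73 and 0.73 and FOSL1::JUND(var.2) at 0.70 and 0.58. The r with CREB1 was weak for FOSL1::JUN(var.2) and JUNB(var.2), whose counts are identical, at 0.25 and 0.12. It was also weak for FOSL2::JUN(var.2), at 0.23 and 0.17. Of the 22 base versions, 18 were nearer to NFE2, against 53.7% of all motifs other than the 2 references. Several of these had an r near 0 with NFE2 and a lower one with CREB1, such as JUNB (-0.00088 and 0.014 with NFE2), FOSL2 and BACH2. JUND had the highest r with NFE2, at 0.32 and 0.40, followed by FOSL1::JUND at 0.29 and 0.38.

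The name did not fix the side. JUND(var.2) and JUN(var.2) were nearer to NFE2, while BATF3, FOSB::JUN and, at an r near 0, Bach1::Mafk were nearer to CREB1, and FOS::JUND was nearer to a different reference in each library. In all, 12 members were nearer to CREB1 and 20 to NFE2. JUND(var.2) was most like JUN (r 0.69), a base version, rather than JUND (0.081). JUN and JUND(var.2) also stood apart from the rest in what they followed outside the family. Both were most like MAFG::NFE2L1 (r 0.49 and 0.41). Their r with the mean of 5 ganglion cell motifs (POU4F1, POU4F2, POU4F3, EBF1 and ISL2) was 0.38 and 0.39 for JUN and 0.36 and 0.35 for JUND(var.2) in the 2 libraries. They did not follow that list alone. With 12 GC-rich promoter motifs the values were -0.52 and -0.50 for JUN and -0.34 and -0.29 for JUND(var.2). With 7 progenitor SOX motifs they were 0.41 and 0.27 for JUN and 0.26 and 0.13 for JUND(var.2).

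Within the base versions, smaller groups could be seen. JUN::JUNB and FOSL2::JUNB were nearly interchangeable (r 0.95), FOSL1::JUN went with FOSL1::JUNB (0.83), and FOSL2 went with JUNB (0.74). BACH2 and Bach1::Mafk, the repressor patterns, went with each other (0.63) and, outside the family, with MAF::NFE2 (0.47) and Nfe2l2 (0.45). BATF::JUN was close to no motif: its highest r was 0.263, with TEAD3, and that with the member FOSL1::JUND was about the same (0.259).

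The means of the 2 versions had different surroundings. Across cells, the mean of the base versions had an r of only 0.042 and 0.061 with the mean of the (var.2) versions. The base mean was most like JDP2 (r 0.64), a bZIP protein that dimerises with JUN, and after it TEAD3 (0.34), SOX9 (0.32), Sox2 (0.30) and Sox17 (0.29). TEAD and SOX factors are known from retinal progenitors. The (var.2) mean was most like ATF7 (0.73), JDP2(var.2) (0.68), Creb5 (0.68), CREB1 (0.63) and Crem (0.63), which are bZIP motifs as well. Least like the base mean were SP2, Zfx and HINFP (-0.31 each), and least like the (var.2) mean was Nobox (-0.36).

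The contrast held for some lists and not for others. With 12 GC-rich promoter motifs (SP and KLF motifs among them, kept as a sign of library quality) the base mean had an r of -0.30 and -0.23 and the (var.2) mean 0.43 and 0.31. With the 4 TEAD motifs the values were 0.30 and 0.28 for base and -0.25 and -0.21 for (var.2). Lists of other cell types showed the contrast too. With 7 horizontal and amacrine motifs the values were -0.28 and -0.33 for base and 0.17 and 0.15 for (var.2). With 4 pigment epithelium motifs they were -0.24 and -0.17 for base and 0.43 and 0.32 for (var.2). With the neurogenic, photoreceptor and microglia lists both means had an r near 0 (from -0.098 to -0.027, mean of the libraries). Cells with more accessibility at GC-rich promoter patterns had lower base and higher (var.2) values, and the part of that balance in the results below was not tested.

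**Figure D3:**
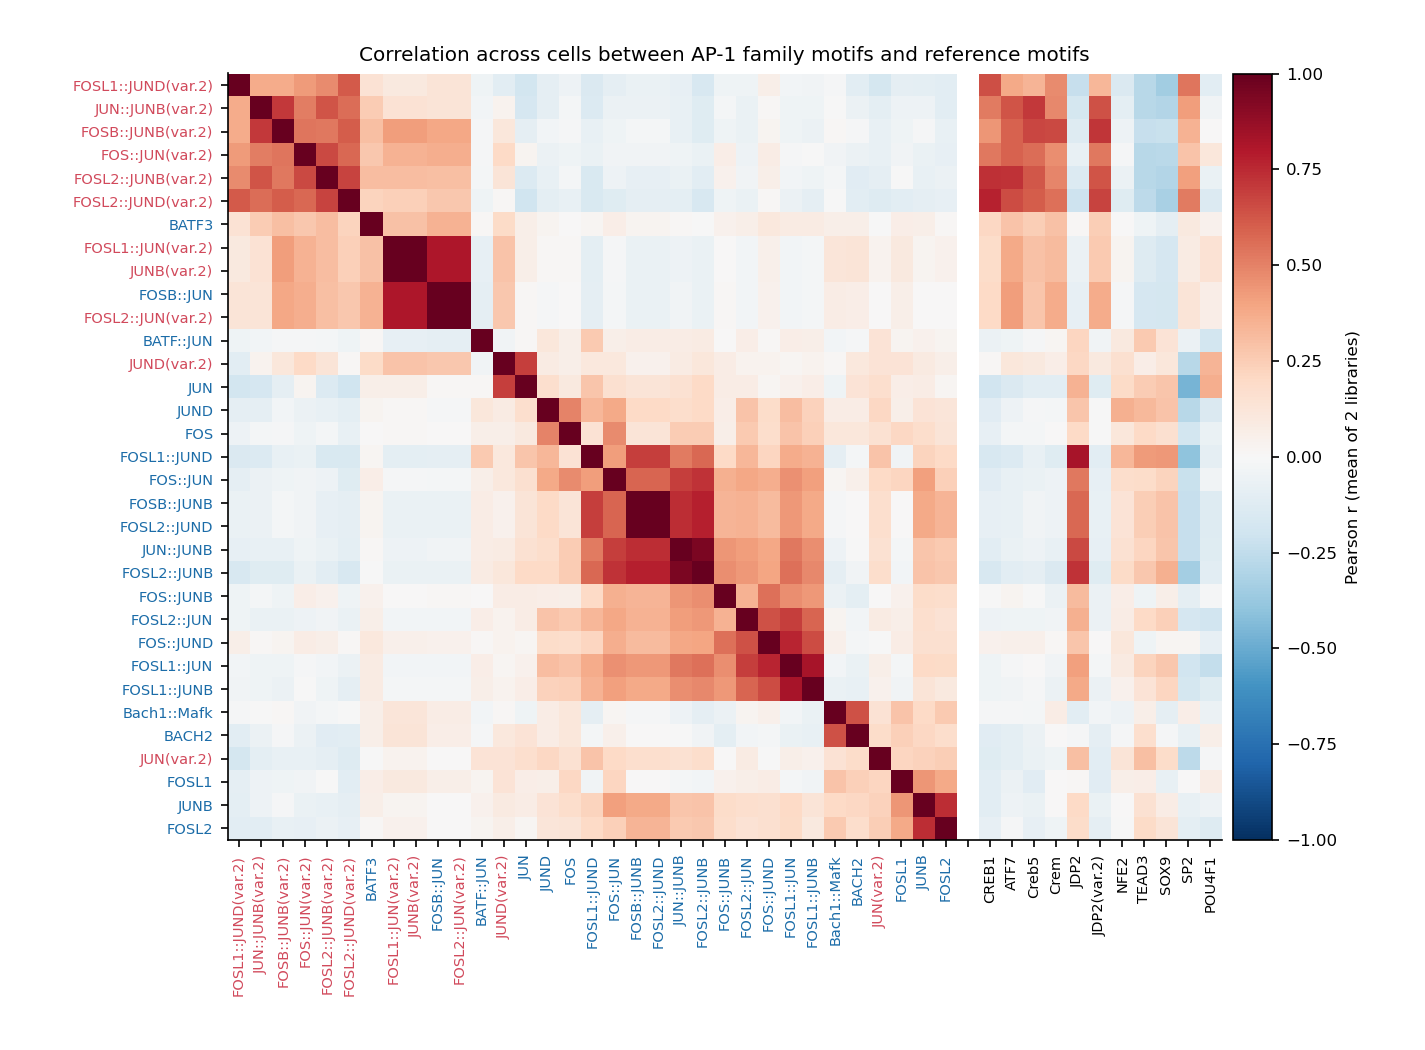
Pearson's r across cells (colour, mean of the 2 libraries) between the 33 AP-1 family motifs, ordered by average linkage, and on the right between them and 11 motifs outside the family. Most (var.2) versions (red names) form a block with CREB1, ATF7 and Creb5, and most base versions (blue names) form blocks with JDP2. JUN and JUND(var.2) are most like each other, at 0.69.

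The family was neither more nor less variable among cells than its counts predict. The excess coefficient of variation (CV), that is the CV of depth-scaled counts after the counting noise is taken off, had a median of 7.78% and 8.34% over members and 6.19% and 6.27% over all motifs. Lower counts go with higher CV, so each motif's log2 CV was set against a smooth trend on its mean count. The median distance of members from the trend was -0.014 and -0.027 on the log2 scale. In both libraries, 11 of 33 members were above the trend, against 44.6% of all motifs, and 14 were below, against 43.9%.

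JUN stood highest above the trend, with a CV of 9.45% and 9.93% and a distance of 0.32 and 0.35. FOSL1::JUND(var.2) (0.30 and 0.22) and JUND (0.21 and 0.23) came next, and all 3 were above it in both libraries. FOS::JUN, the second most frequent member, with a CV of 4.86% and 5.25% and a distance of -0.25 and -0.17, and JUN(var.2), at -0.28 and -0.13, were farthest below it, and their order was within the spread between libraries. Depth went with the versions differently, though weakly. The share fell with the cell's total in both libraries for 4 of 11 (var.2) and 0 of 22 base versions, against 18.7% of all motifs. It rose in both for 1 (var.2) and 20 base versions, against 346 of 579 motifs. The median slopes, in log2 share per doubling of the total, were 0.0077 and 0.0051 for base and -0.0069 and 0.0012 for (var.2) versions.

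Since immediate-early AP-1 genes are known to be induced when tissue is dissociated, a tail of cells with very high AP-1 values was then sought. Each cell was scored by the mean of its base versions, and again by the mean of its (var.2) versions, on the depth-corrected log2 scale above. A cell was in the upper tail if it lay over 3 robust SD (from the median absolute deviation) above the median of its library. For the base versions, 9 of 890 cells in replicate 1 (1.01%, exact 95% binomial interval 0.463 to 1.91%) and 18 of 1051 in replicate 2 (1.71%, 1.02 to 2.69%) were in it. For the (var.2) versions the numbers were 16 cells (1.80%, 1.03 to 2.90%) and 15 cells (1.43%, 0.801 to 2.34%). The intervals cover counting error only.

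Low values were found beside the high ones. The lower tail of the base versions held 10 cells in each library, and that of the (var.2) versions 8 and 14. In replicate 2 of the base and replicate 1 of the (var.2) versions the upper tail held more cells, 18 against 10 and 16 against 8. A score over all 33 members had 10 cells above and 3 below in replicate 1, and 20 above and 13 below in replicate 2. Upper and lower tails overlapped in their intervals in the 4 cases of base or (var.2) versions. Such overlap is no test of one tail against the other, and an excess on the high side was not tested. The size of the shift was modest: in the tail cells the median summed share of base versions was 1.14 and 1.15 times the library median (47.2 against 41.4 and 45.7 against 39.6 counts per 10000). For the (var.2) versions it was 1.19 and 1.18 times.

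Cells of both the upper and the lower tails were shallow. The median total in the upper tail was 0.156 and 0.159 times the library median for the base versions and 0.311 and 0.147 times for the (var.2) versions. In the lower tail it was 0.247 and 0.197 times for the base and 0.198 and 0.144 times for the (var.2) versions. Where only cells with at least 1000000 counts were used, the upper tails fell to 0.494% and 0.878% for the base and 1.11% and 0.768% for the (var.2) versions. The base and (var.2) upper tails were mostly different cells. They shared 2 cells in replicate 1, 22.2% of the base and 12.5% of the (var.2) tail, and 3 in replicate 2, 16.7% and 20%.

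**Figure D4:**
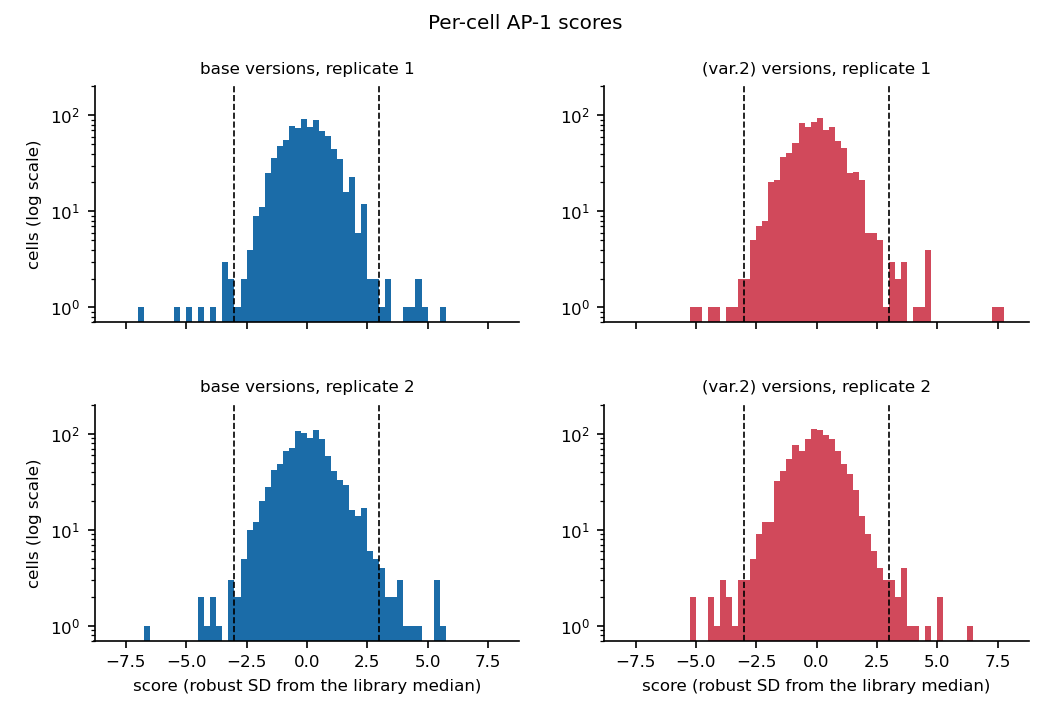
Number of kept cells (vertical axis, log scale) by AP-1 score (horizontal axis, in robust SD from the library median) for the base and (var.2) versions in each library, with dashed lines at 3 robust SD on each side. Cells beyond the lines are few on both sides, from 9 to 18 above and from 8 to 14 below in a panel.

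No single stress motif stood far out in the base tail. The mean of 14 motifs of stress and immediate-early factors lay at the 58.3rd and 79.0th percentile of all cells there, above the middle in both libraries. Of these 14, the number whose median in the base tail was above the 90th percentile of all cells in both libraries was 0. HSF2, HSF4 (heat shock factors), SRF, which drives immediate-early genes, and RELA, an NF-kB subunit, were above the 50th percentile in both libraries. NFKB1, HIF1A and ARNT::HIF1A were among those below it in both. HSF4 reached the 69.5th and 83.9th percentile, whereas ARNT::HIF1A, a hypoxia pattern, lay at the 10.7th and 6.28th. In the (var.2) tail, SRF, NFKB1, HIF1A and ARNT::HIF1A were above the 50th percentile in both libraries, and again 0 of 14 passed the 90th. In the (var.2) tail the stress list lay at the 77.0th and 64.1st percentile. Higher there were the list of 13 other CREB/ATF and JDP2 motifs (98.8th and 98.4th percentile), the 12 GC-rich promoter motifs (97.7th and 86.9th), 4 pigment epithelium motifs (97.2nd and 88.4th) and 7 endothelial and erythroid motifs (82.2nd and 78.2th). These cells were chosen by the (var.2) mean, with which the lists, in the order given, had an r of 0.76, 0.37, 0.38 and 0.31. High percentiles on such lists follow in part from that choice and are no separate result about the tail. In the base tail, a list of 9 NFE2 and MAF bZIP motifs lay at the 86.1st and 92.2nd percentile, with an r of 0.24 with the base mean. The part of these lists in the tails was not tested.

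For single motifs the upper tail held a median of 1.01% and 1.33% of cells over the 33 members and 1.01% and 1.14% over all motifs. In both libraries, 17 of 33 members had more cells above than below, against 29.2% of all motifs. Members with like patterns share counts, so these are fewer than 17 separate measurements. FOSL2 had the largest upper tail, at 2.02% and 2.38% of cells against 1.01% and 1.14% below. JUN and JUND(var.2) had the smallest, at 0.337% and 0.476% for JUN and 0.674% and 0.285% for JUND(var.2), and both had more cells below, at 1.69% and 1.71% for JUN.

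To place the members in kinds of cells without using them, cells were clustered on the other motifs. The 33 members and 4 motifs tied to them (CREB1, ATF7, JDP2 and JDP2(var.2), each with r above 0.7 to a member in both libraries) were left out. Peaks that hold AP-1 patterns still entered through the other motifs they contain. This gave 7 clusters, from cluster 1 with 263 and 300 cells to cluster 7 with 44 and 50. Cluster 4 (122 and 143 cells) was ganglion cell-like, with POU4F1, POU4F2, POU4F3 and EBF1 among its 10 motifs of highest fold. Cluster 3 (139 and 150 cells) was neurogenic-like, led by NEUROD1, NEUROD2 and Neurog1. The others are called by number. Clusters 1 and 2 had SOX motifs among their top 10, cluster 5 E2F1 and nuclear receptor motifs, cluster 6 ZBTB7B and ZBTB7C, and cluster 7 was led by Crx, a photoreceptor factor. The neurogenic motifs were not particular to cluster 3. NEUROD1, Neurog1 and NEUROD2 were also in the top 10 of cluster 7, at log2 folds of 0.255, 0.215 and 0.203. In cluster 3 their log2 folds were 0.193, 0.165 and 0.185.

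Nearly every member varied across these clusters, as nearly every motif did. By edgeR's quasi-likelihood F test on counts summed per library and cluster, with the library as a block and Benjamini-Hochberg adjustment over 579 motifs, 32 of 33 members passed 0.05, against 95.5% of all motifs. BATF3, the least frequent member, did not (adjusted p = 0.425). With no replicate block, 19 members passed, and FOSL1, FOSL2, JUN::JUNB(var.2), FOS::JUNB and FOSL1::JUNB, the 5 that differ between libraries, were among those lost. The p-values measure how clusters vary between the same 2 libraries, and the effects were small, with no member's fold reaching 0.15 on the log2 scale.

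More base versions were higher than lower in clusters 1, 2 and 5. In cluster 2, 14 of 22 base versions were higher and 5 lower, against 41.8% and 38.5% of all motifs, with a median log2 fold of 0.045 against -0.00028 over all motifs. The (var.2) versions had 1 of 11 higher and 4 lower (median -0.027), and the share that was lower was at the background. JUND stood at 1.32 and 1.33 counts per 10000 in cluster 2, a log2 fold of 0.13 ± 0.0086 (SE) over the mean of the other clusters (edgeR adjusted p = 5.6e-08). FOSL1::JUN (0.11 ± 0.0071), FOSL1::JUND (0.11 ± 0.0064) and JUN (0.09 ± 0.0063) were also higher. FOSL1, against these, was lower (-0.06 ± 0.0059). All 4 TEAD and all 7 SOX motifs of the progenitor lists were higher in this cluster too, whereas those of GC-rich promoters were lower, 12 of 12.

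In cluster 1, the most numerous, 14 base versions were higher and 5 lower, against 38.9% and 48.2% of all motifs, and 1 (var.2) version was higher and 10 lower. The shifts were smaller than in cluster 2, with medians of 0.016 and -0.023. With no replicate block, 3 base versions were higher and 0 (var.2) versions lower. FOSL1::JUND (0.06 ± 0.0023) rose most, and FOSB::JUN, whose counts FOSL2::JUN(var.2) shares, fell most (-0.07 ± 0.0045). Again the TEAD motifs (4 of 4) were higher and the GC-rich promoter motifs (12 of 12) lower.

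Cluster 5 had FOSL1 and FOSL2 in front. There, 12 base versions were higher and 1 lower, against 28.7% and 44.4% of all motifs, and 1 (var.2) version was higher and 6 lower. With no replicate block, 6 base versions were higher. FOSL1, at 4.21 and 2.79 counts per 10000, had a log2 fold of 0.10 ± 0.0053, FOSL2 of 0.09 ± 0.0060, Bach1::Mafk of 0.08 ± 0.0045, JUND of 0.07 ± 0.0088, JUNB of 0.07 ± 0.0057 and FOS of 0.06 ± 0.0057. JUND was thus higher in both clusters 2 and 5. Within each library FOSL1 was thus higher in this cluster (log2 fold 0.10 and 0.11), though the libraries themselves were farther apart. FOSL1 and Bach1::Mafk were lower in cluster 2, where JUND and FOSL1::JUN were at their highest. Cells of cluster 5 were deeper, at 1.27 and 1.28 times the median total of their library, and the part of depth in this result was not tested. All 4 TEAD motifs were higher here too.

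In the ganglion cell-like cluster 4 the versions were reversed. There, 4 of 22 base versions were higher and 12 lower, against 31.4% and 37.7% of all motifs, and 7 of 11 (var.2) versions were higher and 0 lower. The median log2 folds were -0.030 for base and 0.038 for (var.2) versions, against -0.0053 over all motifs. With no replicate block, 8 base versions were lower and 2 (var.2) versions higher. Both counts depended on the cells and the clustering. In the cluster highest for the ganglion cell list, 15 base versions were lower at resolution 0.3, where 2 (var.2) versions were higher and 3 lower, and 10 were lower with a minimum of 1000000 counts, where 2 (var.2) versions were higher and 0 lower. With cells thinned to 300000 counts, 7 base versions were lower and 3 (var.2) versions higher. FOSL1::JUN, at 1.16 and 1.15 counts per 10000, fell most (-0.10 ± 0.0095, edgeR adjusted p = 4.0e-06), and JUND (-0.08 ± 0.011) and FOSL2::JUN (-0.07 ± 0.011) followed. Among (var.2) versions, FOS::JUN(var.2) rose by 0.07 ± 0.0095 on the log2 scale.

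JUN went against most other base versions in cluster 4. It stood at 1.99 and 1.98 counts per 10000 there, against 1.88 and 1.86 over all cells, and had the largest fold of any member in the cluster (0.12 ± 0.0073, edgeR adjusted p = 1.1e-07; 1.4e-04 with no replicate block). JUND(var.2), the motif most like it, was also higher (0.08 ± 0.0080). Both were lowest in cluster 6 (JUN -0.10 ± 0.010 and JUND(var.2) -0.09 ± 0.012). The 4 TEAD motifs were all lower in cluster 4, while the GC-rich promoter motifs were split, with 2 of 12 higher and 7 lower.

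Cluster 7, led by Crx, was lowest for the base versions. Of these 2 were higher and 13 lower, against 35.6% and 30.2% of all motifs, and of the (var.2) versions 4 were higher, a share at the background, and 0 lower. By DESeq2 9 and with no replicate block 6 (var.2) versions were higher. The median folds were -0.040 and 0.066, against 0.0075 over all motifs. FOSL1::JUND, at 2.46 and 2.54 counts per 10000, fell most (-0.14 ± 0.014, edgeR adjusted p = 6.3e-06), and FOSB::JUNB (-0.12 ± 0.030), FOSL1::JUN (-0.12 ± 0.020) and JUND (-0.11 ± 0.022) were lower as well. The largest rise was that of the counts shared by FOSB::JUN and FOSL2::JUN(var.2) (0.13 ± 0.038). Cells of this cluster were shallower, at 0.730 and 0.848 times the library median, and all 12 GC-rich promoter motifs were higher and all 7 SOX motifs lower. Their part in the result was not tested.

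The other clusters showed weaker or mixed patterns. In the neurogenic-like cluster 3, 4 base versions were higher and 9 lower, against 27.6% and 34.9% of all motifs, and 0 (var.2) versions were higher and 5 lower. BACH2 and BATF::JUN were among those that fell (both -0.05). In cluster 6, 1 base version was higher and 5 lower, against 22.1% and 36.1%, and 2 (var.2) versions were higher and 4 lower. FOSL1::JUND(var.2), the most frequent member, had its highest value there, at 4.92 and 4.83 counts per 10000 (0.07 ± 0.0077). In the same cluster 9 of 13 other CREB/ATF and JDP2 motifs and all 12 GC-rich promoter motifs were higher.

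**Figure D5:**
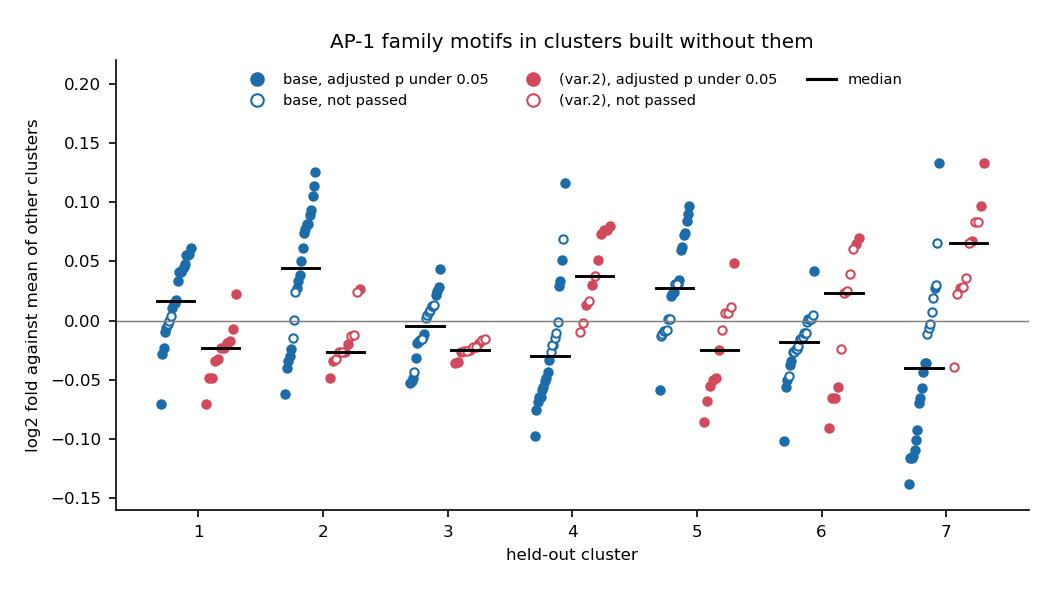
Log2 fold of each AP-1 family motif in a cluster against the mean of the other clusters (vertical axis), for the 7 clusters built without the members (horizontal axis), with base versions in blue, (var.2) versions in red, filled points for edgeR adjusted p under 0.05 and black bars for medians. Base medians are above 0 in clusters 1, 2 and 5 and lowest in cluster 7 (-0.040), where the (var.2) median is highest (0.066).

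The balance of the summed versions followed from this. The log2 ratio of summed base to summed (var.2) counts was highest in cluster 5 (0.85 ± 0.036, SD, n = 2) and cluster 2 (0.84 ± 0.033) and lowest in cluster 7 (0.73 ± 0.041), cluster 6 (0.73 ± 0.019) and the ganglion cell-like cluster 4 (0.74 ± 0.027). Clusters 5, 2, 1, 3 and 4 came in this order in both libraries, while clusters 6 and 7 changed places. The SD is mostly the offset between the libraries, which all clusters share. By single pairs the picture was less settled. FOSL2::JUNB and FOSL1::JUND had the same highest cluster (2) and the same lowest cluster (7) in both libraries, 2 of 11 pairs. That count was 5 at resolution 0.3, 0 at resolution 1.0 and 6 with a minimum of 1000000 counts. For FOSL1::JUND the ratio to its (var.2) version was log2 -0.62 ± 0.038 in cluster 2 and -0.87 ± 0.0078 in cluster 7.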

How the data were processed

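Per the file headers, each library is a whole-number matrix of counts for 579 motifs by barcode, written by matrix software 1.1.0, with Cell Ranger and build mm10 named per the submitters' processing notes. These raw counts were deposited without normalization, and in matrices of this kind a cut inside a peak counts for every motif in it. How peaks were called and motifs searched is not given in the sources used here.

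The totals of the 2 libraries were 3373212147 and 3932721221 counts. Of all barcodes 1828 occurred in both libraries, and the kept cells, with a median of 3519151 and 3523871 counts, held 98.3% and 97.3% of the counts. Among kept cells, 872 and 925 barcodes also occurred, at a lower total, in the other library. No doublet caller was run.

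The members and motif lists were chosen with earlier results of these data known. Named were all pairs, the 3 highest and lowest members, those with a log2 library ratio over 0.1 or identical counts, extremes of CV and tail, the 5 most like motifs, and the members of largest fold in a cluster, the last chosen after their values were seen. Clusters (scanpy 1.11.5, igraph 0.11.9) used 15 principal components, 20 neighbours, Leiden resolution 0.5 and at least 20 cells per library. A cluster was called "like" a class where at least 3 of its top 10 motifs were in that class's list and none led against it. Summed counts were tested with edgeR 4.0.16 (R 4.3.3), TMM scaling, no filter and 6 residual degrees of freedom. The library was a block because all clusters of a library come from 1 sample. DESeq2 1.42.0 was an alternative. Values of some motifs outside the family are not reported here. The scripts were tested on simulated data.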

Additional observations from a re-analysis of the deposited data

Results flagged for a closer look

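The barcodes left out of the main values, used only in the alternative with all barcodes, carried AP-1 family counts at about the level of the kept cells: 65.1 counts per 10000 in replicate 1 and 62.9 in replicate 2, against 64.8 and 62.8 in the kept cells. They held a median of 28507.5 and 37400 counts, and include barcodes that are also in the other library. The base versions gave 41.8 and 39.7 and the (var.2) versions 23.2 and 23.2 counts per 10000 there.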

How the results depend on the processing

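Of 95 values under other settings, 72 stayed within the limits set for them and 23 moved. Most of these values are counts or shares, which cannot change direction. Not among them are the (var.2) counts of the cluster highest for the ganglion cell list under other clusterings. At resolution 0.3, 2 (var.2) versions were higher there and 3 lower, against 7 and 0 in the main clustering. The tails depended most on the cells used and on the limit. The base tail held 1.36% of cells (mean of the libraries), 0.686% with a minimum of 1000000 counts, 6.32% with all barcodes, and 2.11% and 0.670% at 2.5 and 4 robust SD. The (var.2) tail held 1.61%, and 0.940%, 5.10%, 2.28% and 0.687% in the same order, 0.679% with cells thinned to 300000 counts and 1.25% with a pseudocount of 0.1. The median CV distance was -0.0091 with all barcodes (-0.028 in replicate 1 and 0.0099 in replicate 2) and -0.033 with thinned cells. The summed share was 0.539% without the 5 members that differ between libraries, which were chosen after seeing the data.

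With no replicate block, 19 members passed across clusters, 3 base versions were higher in cluster 1 and 6 in cluster 5, 2 (var.2) versions were higher in cluster 4 and 0 lower in cluster 1. By DESeq2, 9 (var.2) versions were higher in cluster 7. With thinned cells, 7 base versions were lower in the cluster highest for the ganglion cell list. The counts by single cluster were added after seeing the data. Pairs with the same highest and lowest cluster in both libraries numbered 5 at resolution 0.3, 0 at 1.0 and 6 with a minimum of 1000000 counts. The cause of these moves was not tested.

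With a single replicate the summed share was 0.628 to 0.648%, the median pair ratio 0.56 to 0.67, the CV distance -0.027 to -0.014, the base tail 1.01 to 1.71% and the (var.2) tail 1.43 to 1.80%. The cluster test was not run on a single replicate, because 1 library leaves no residual degrees of freedom. The tails rest on few cells, most of them of low total. With each cell thinned to 300000 counts the base tail held 1.01% and the (var.2) tail 0.679% (mean of the libraries). Beyond this setting the part of depth in the tails was not tested.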
